A study of Mus musculus with 12 samples.

Results

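The CXC chemokines Cxcl1, Cxcl2, Cxcl3, Cxcl5, Cxcl10, Cxcl12, Cxcl14, Cxcl15, Cxcl16 and Cxcl17 were followed through RNA sequencing of cultured mouse endometrial cells. These 10 genes, out of 55385 gene identifiers in the count table, were taken by their symbols, and all 10 were found. The libraries came from C57BL/6 mice and formed 3 groups of 4, namely the endometrial cancer line HPmECC, the endometrial cancer line mECC, and primary cultured normal endometrium cells (normal cells below). According to the design text some cancer cells carried overexpressed Myc, but no label says whether that was HPmECC, mECC or both. Whether a line was derived from a single clone, how each was transformed and which cell types the primary culture held is not stated in the sources used here. It is also not stated whether the libraries of a group were grown separately, so every p-value below measures only the spread between libraries, which may be technical.

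CXC chemokines are small secreted proteins, named for a conserved pair of cysteines with a single residue between them, that guide leukocytes through G protein-coupled receptors. Cxcl1, Cxcl2, Cxcl3, Cxcl5 and Cxcl15 attract neutrophils, mainly through Cxcr2, and are typically induced by interleukin 1 or tumour necrosis factor acting through NF-kB. Cxcl10 is induced by interferons and attracts T cells and natural killer cells through Cxcr3, whereas Cxcl12 is made steadily by stromal cells and signals through Cxcr4. In the endometrium such chemokines are known for the traffic of neutrophils, natural killer cells and macrophages through the cycle and in early pregnancy.

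Total counts per library ran between 18402202 and 26873582 in HPmECC, between 21755275 and 25821106 in mECC and between 16332060 and 24202564 in normal cells. Levels are given as CPM, the share of a gene in the counts of its library after scaling by TMM factors, and levels of different genes are compared only as TPM, which also divides by transcript length. A gene was called when its edgeR quasi-likelihood p-value, adjusted over all 15283 genes tested, was under 0.05. All 10 chemokines passed the filter on low counts, Cxcl2 and Cxcl17 through normal cells alone and Cxcl3, Cxcl10, Cxcl14 and Cxcl15 through a pair of groups. In such bulk RNA, fewer cells of a type and less RNA per cell cannot be told apart.

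Among the 10 genes, the lines and normal cells had different leading transcripts. Cxcl12 made up 91.3% ± 0.596 of the summed TPM of the 10 genes in HPmECC and 87.7% ± 0.225 in mECC, against 1.72% ± 0.221 in normal cells (SD, n = 4 each). Cxcl16 made up 0.873% ± 0.189 in HPmECC and 1.26% ± 0.0748 in mECC, against 58.2% ± 0.861 in normal cells, where it led the 10. Behind these leaders came Cxcl1 in HPmECC (3.76%), Cxcl15 in mECC (7.74%) and Cxcl17 in normal cells (18.8%). The 10 genes together had 641 to 707 TPM in HPmECC, 1611 to 1752 TPM in mECC and 441 to 460 TPM in normal cells. Without Cxcl12 the order changed, to 56.3 to 61.5 TPM in HPmECC, 194 to 219 TPM in mECC and 432 to 453 TPM in normal cells. These sums leave out Ppbp, a CXC ligand gene outside the 10, so they do not order the groups by all CXC ligands. Its mean TPM was 0.49 in HPmECC, 4.32 in mECC and 428.5 in normal cells, above the 264.5 of Cxcl16 there.

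**Figure D1:**
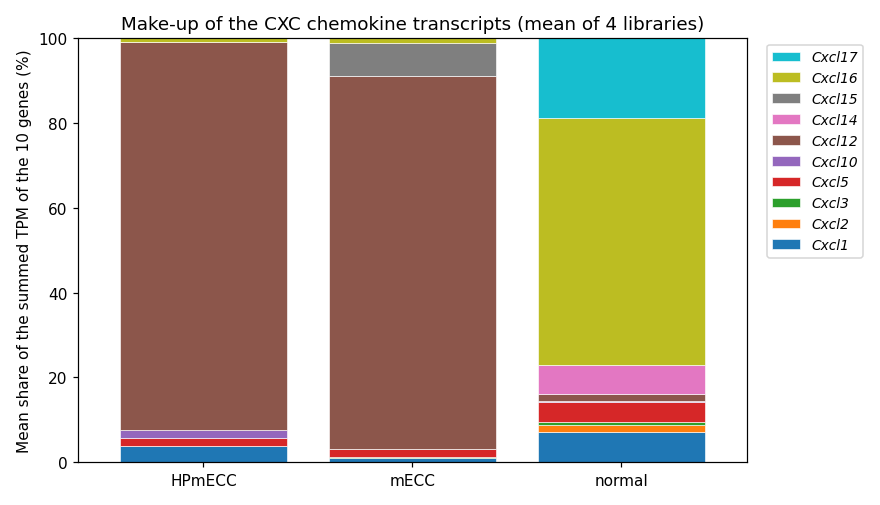
Mean share of each gene in the summed TPM of the 10 CXC chemokines (y axis, percent) in HPmECC, mECC and normal cells (x axis), as stacked bars over 4 libraries each. Cxcl12 fills 91.3% of the HPmECC bar and 87.7% of the mECC bar, and Cxcl16 fills 58.2% of the normal bar.

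The order of levels by mean TPM differed as well. In HPmECC it ran Cxcl12 (621 TPM), Cxcl1 (25.5), Cxcl10 (12.8), Cxcl5 (12.7), Cxcl16 (5.91) and Cxcl15 (1.18), with the other four under 0.5 TPM, and Cxcl10 and Cxcl5 overlapped between libraries, as did neighbours below Cxcl16. In mECC the order was Cxcl12 (1482 TPM), Cxcl15 (131), Cxcl5 (29.4), Cxcl16 (21.2), Cxcl1 (18.4), Cxcl3 (3.06), Cxcl10 (2.58), Cxcl2 (0.823), Cxcl14 (0.66) and Cxcl17 (0.223). There the overlapping neighbours were Cxcl3 with Cxcl10 and Cxcl2 with Cxcl14. In normal cells it was Cxcl16 (264.5 TPM), Cxcl17 (85.4), Cxcl1 (32.1), Cxcl14 (31.6), Cxcl5 (21.1), Cxcl12 (7.81), Cxcl2 (7.57), Cxcl3 (4.05) and Cxcl10 (0.623), with Cxcl15 at 0, and Cxcl1 overlapped Cxcl14 as Cxcl12 did Cxcl2. Among all 15283 genes tested, Cxcl12 ranked 242 by mean TPM in HPmECC, 89 in mECC and 9395 in normal cells.

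In HPmECC against mECC, 2 of the 10 chemokines were higher, 6 were lower and 2 were not called. Over all genes tested 68.3% were called, 33.8% as higher and 34.5% as lower. Of the 10, 7 were called with a change of at least 2-fold, where 16.1% of all genes were, and 8 had libraries that did not overlap between the lines, which held for 63% of all genes. The median log2 fold change of the 10 was -1.12, beside -0.002 over all genes. In mECC against normal cells, 4 were higher and 6 lower, where 86.3% of all genes were called, 42.1% higher and 44.2% lower. Here 8 passed 2-fold (41.2% of all genes) and none of the 10 overlapped between the groups (no overlap in 82.3% of all genes), with a median of -0.87 beside -0.018. In HPmECC against normal cells, 3 were higher and 7 lower, where 86.4% of all genes were called, 43% higher and 43.3% lower. Again 8 passed 2-fold (41.5% of all genes) and none overlapped (no overlap in 81.7% of all genes), with a median of -2.32 beside 0.001. Without a fold limit, the counts of chemokines called stand near these shares of all genes. The counts past 2-fold lie above the shares of all genes past it, a difference that was not tested because the 10 genes were chosen with results known. Cxcl2 and Cxcl17 are among the 8 in both comparisons with normal cells. They passed the filter on low counts through normal cells alone, so their lower levels in the lines were partly fixed by that filter. The comparisons share libraries, both against normal cells using the same 4 normal ones, so they are not independent of each other.

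**Figure D2:**
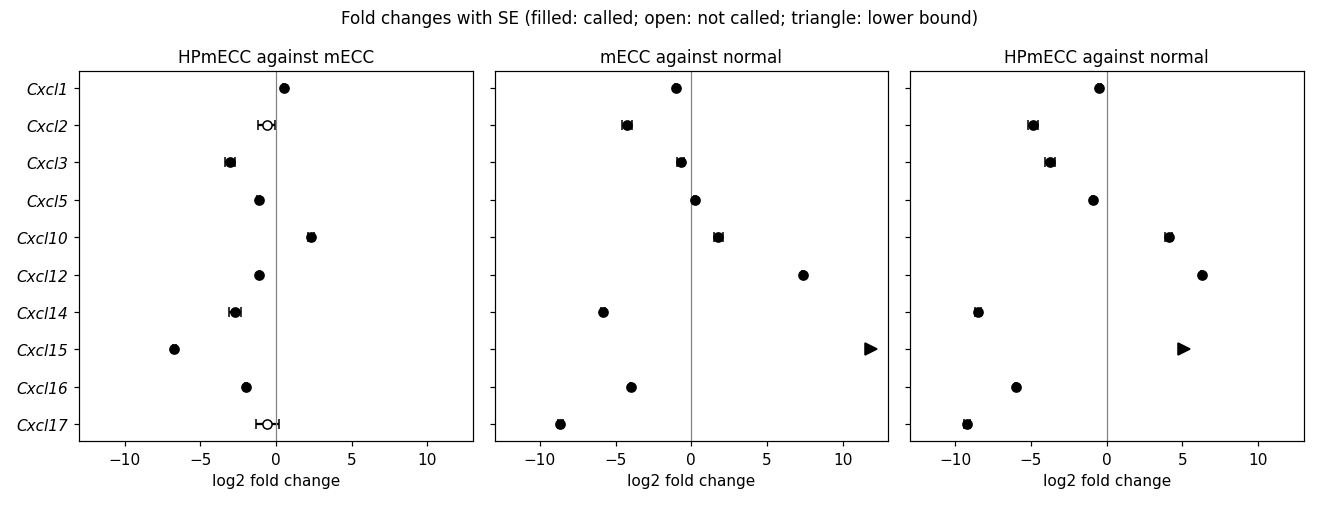
Log2 fold change (x axis) of each CXC chemokine (y axis) in HPmECC against mECC, mECC against normal cells and HPmECC against normal cells, with the SE of the edgeR fit as bars. Filled points were called, open points (Cxcl2 and Cxcl17 between the lines) were not, and triangles mark Cxcl15, a lower bound because normal cells held 0 counts. Cxcl10 and Cxcl12 lie to the right of 0 in both comparisons with normal cells, and Cxcl14, Cxcl16 and Cxcl17 to the left.

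Cxcl12 (ENSMUSG00000061353, chromosome 6, 117168535 to 117181367 on GRCm38, plus strand) had 1005, 972, 976 and 907 CPM in the HPmECC libraries, 2010, 2125, 2003 and 2119 CPM in mECC, and 13.3, 11.4, 14.3 and 11.1 CPM in normal cells. The 3 groups did not overlap. HPmECC was 2.14-fold lower than mECC (log2 fold change -1.10, SE 0.042, adjusted p = 5.79e-14). The gene was 166-fold higher in mECC than in normal cells (log2 fold change 7.37, SE 0.061, adjusted p = 2.65e-24) and 77.5-fold higher in HPmECC than in normal cells (6.28, SE 0.059, adjusted p = 6.57e-24). The transcript length implied by counts over TPM was 6.35% longer in HPmECC than in mECC and 9.61% longer than in normal cells, with no overlap between libraries, and TPM carries that difference in length.

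Its receptors were distributed otherwise. Cxcr4, the signalling receptor of Cxcl12, had 3, 1, 0 and 0 counts in HPmECC and 0, 1, 1 and 1 counts in mECC, against 34.6, 36.5, 29.3 and 39.1 CPM (511 to 852 counts per library) in normal cells. Both lines were thus at the floor of detection. Cxcr4 passed the filter on low counts through normal cells alone, so its lower levels in the lines were partly fixed by that filter. HPmECC was lower than normal cells by a log2 fold change of -9.56 (SE 0.23, adjusted p = 6.01e-18), a value resting on 4 counts that became -10.84 without HPmECC replicate 1. In mECC the ratio of normal cells to the line was 1194 (exact 95% counting interval 408 to 5796, which covers counting error only; adjusted p = 5.05e-18). Ackr3, the atypical receptor that takes up Cxcl12 without signalling through G proteins, had 36.1, 34.4, 38.8 and 45.6 CPM in HPmECC and 35.7, 35.4, 33.6 and 38.3 CPM in mECC, against 12.6, 14.2, 14.7 and 12.2 CPM in normal cells. The lines overlapped each other (log2 fold change 0.12, adjusted p = 0.154) and lay above all normal libraries. Ackr3 was 2.89-fold higher in HPmECC (adjusted p = 3.86e-12) and 2.66-fold higher in mECC (adjusted p = 1.5e-11) than in normal cells.

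**Figure D3:**
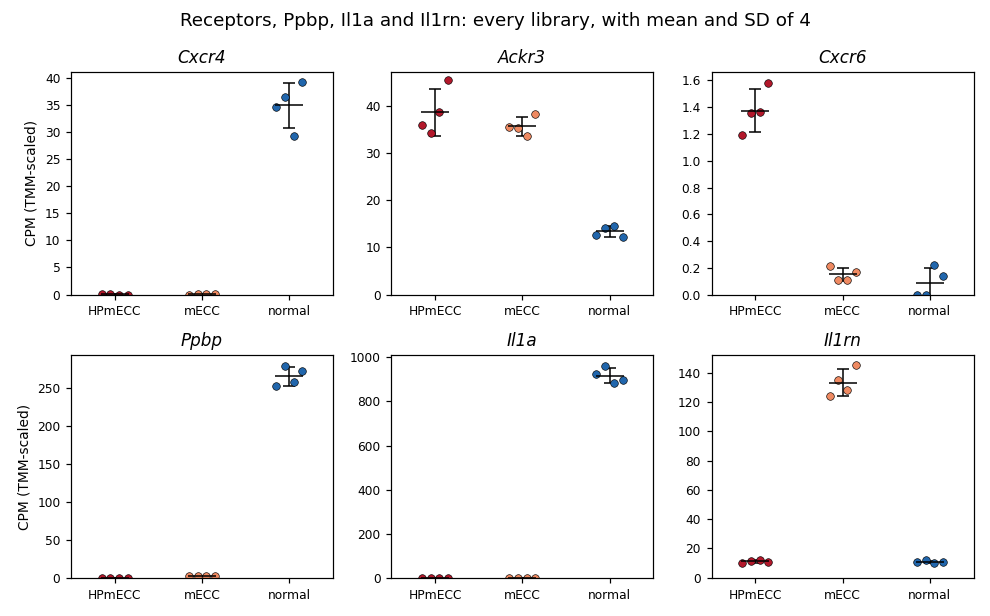
TMM-scaled CPM (y axes, each panel with its own scale) of the receptors Cxcr4, Ackr3 and Cxcr6, the ligand gene Ppbp, and Il1a and Il1rn, in HPmECC, mECC and normal cells (x axis). Points are libraries, with the mean and SD of 4. Cxcr4, Ppbp and Il1a are high in normal cells, Ackr3 in both lines, Cxcr6 in HPmECC and Il1rn in mECC.

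The neutrophil chemokines Cxcl1, Cxcl2 and Cxcl3 were called lower in both lines than in normal cells. Their promoters are shown because these 3 genes hold the same NF-kB motif. Each window is the RefSeq sequence of the 250 bases before the transcription start on GRCm38.p6, plus strand, 5′ to 3′, at chr5:90890995-90891244 for Cxcl1, chr5:90903649-90903898 for Cxcl2 and chr5:90785851-90786100 for Cxcl3. Capitals mark the matches of the kB consensus, the binding motif of NF-kB.
Cxcl1: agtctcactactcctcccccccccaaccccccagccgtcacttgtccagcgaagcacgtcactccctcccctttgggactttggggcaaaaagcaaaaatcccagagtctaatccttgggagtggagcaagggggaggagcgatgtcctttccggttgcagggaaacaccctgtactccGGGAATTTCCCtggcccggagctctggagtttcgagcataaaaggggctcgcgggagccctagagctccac
Cxcl2: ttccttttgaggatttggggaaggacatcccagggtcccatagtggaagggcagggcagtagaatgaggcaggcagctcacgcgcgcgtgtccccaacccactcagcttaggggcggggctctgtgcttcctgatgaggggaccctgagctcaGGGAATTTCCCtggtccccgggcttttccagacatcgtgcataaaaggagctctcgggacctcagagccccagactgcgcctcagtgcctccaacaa
Cxcl3: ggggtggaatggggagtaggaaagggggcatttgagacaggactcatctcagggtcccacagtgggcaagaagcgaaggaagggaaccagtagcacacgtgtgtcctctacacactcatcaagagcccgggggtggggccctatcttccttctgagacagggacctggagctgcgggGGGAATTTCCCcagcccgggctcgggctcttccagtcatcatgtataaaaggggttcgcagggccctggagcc
In all 3 the capitals cover GGGAATTTCC, which begins 71, 97 and 73 bases before the start in Cxcl1, Cxcl2 and Cxcl3, and a second consensus match on the other strand that overlaps it and lies 1 base further on. GGGAATTTCC was taken from the Cxcl1 window and then searched for, so its match there was fixed in advance. Searched on both strands, it occurred in 29 of 32851 RefSeq promoter windows (0.0883%, over 250 bases before to 50 after the start), and the kB consensus in 4.51% of them. Over the 250 bases before the start alone, as searched here, these shares were 0.0852% and 3.9%. The Cxcl3 window also held CACGTG, 155 bases before the start (6.02% of all windows over the same 250 bases), and TATAAA, 30 bases before it (12.4%). These matches describe letters in the windows, and binding was not measured. RefSeq windows were at hand for 7 of the 10 genes, all but Cxcl5, Cxcl16 and Cxcl17.

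Cxcl1 (ENSMUSG00000029380, chromosome 5, 90891241 to 90893115) had 12.5, 10.8, 11.8 and 13.7 CPM in HPmECC and 8.60, 7.74, 8.15 and 9.15 CPM in mECC, against 18.01, 16.3, 15.4 and 18.6 CPM in normal cells. Normal cells were highest, mECC lowest, and no groups overlapped. HPmECC was 1.45-fold higher than mECC (log2 fold change 0.54, SE 0.087, adjusted p = 2.06e-05) and lower than normal cells (-0.49, SE 0.082, adjusted p = 2.28e-05). The log2 fold change of mECC against normal cells was -1.03 (SE 0.086, adjusted p = 1.6e-09).

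Cxcl2 (ENSMUSG00000058427, chromosome 5, 90903871 to 90905938) had 0, 4, 4 and 8 counts in HPmECC and 3, 5, 11 and 7 counts in mECC, against 5.55, 4.05, 4.57 and 5.56 CPM in normal cells. The lines overlapped, with means of 0.162 ± 0.125 CPM in HPmECC and 0.252 ± 0.121 CPM in mECC. Their difference did not pass the test (log2 fold change -0.62, SE 0.54, adjusted p = 0.32), and lay between -1.12 and -0.23 when each library was left out in turn. Against normal cells HPmECC was 29.2-fold lower (adjusted p = 1.46e-10) and mECC 19.0-fold lower (adjusted p = 3.13e-10).

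Cxcl3 (ENSMUSG00000029379, chromosome 5, 90786103 to 90789600) parted the lines. It had 0.0853, 0.107, 0.42 and 0.147 CPM in HPmECC and 1.75, 1.53, 1.16 and 1.49 CPM in mECC, against 2.17, 2.55, 2.42 and 2.48 CPM in normal cells. No groups overlapped, and the third HPmECC library was the highest of its group. HPmECC was 8.19-fold lower than mECC (log2 fold change -3.03, SE 0.33, adjusted p = 1.47e-07), and without HPmECC replicate 3 the log2 value was -3.63 (adjusted p = 2.23e-08). Against normal cells HPmECC had -3.74 (SE 0.31, adjusted p = 1.68e-09), or -4.33 without that library. The step of mECC below normal cells was small (log2 fold change -0.71, SE 0.22, adjusted p = 0.00615) and lost its call with library totals in place of TMM (-0.47, adjusted p = 0.0556) and on log2(TPM + 0.1) (-0.41, adjusted p = 0.234). Transcripts of Cxcl2 and Cxcl3 share an identical run of 157 bases, so the split of reads between these genes is uncertain. Summed, a step chosen after the values were seen, they had 0.352 ± 0.236 CPM in HPmECC and 1.73 ± 0.137 CPM in mECC, against 7.34 ± 0.657 CPM in normal cells. The sum was lower in HPmECC than in mECC by a log2 fold change of -2.33 (adjusted p = 7.34e-07), and the mECC sum was below that of normal cells by -2.08 (adjusted p = 2.68e-09).

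Cxcl5 (ENSMUSG00000029371, chromosome 5, 90759360 to 90761624), another neutrophil chemokine, moved in opposite directions in the lines. It had 10.7, 9.94, 12.4 and 11.1 CPM in HPmECC and 23.6, 25.5, 24.4 and 23.7 CPM in mECC, against 17.0, 22.7, 21.4 and 20.8 CPM in normal cells. All mECC libraries lay above all normal ones, and all HPmECC libraries below them. HPmECC was 2.21-fold lower than mECC (log2 fold change -1.15, SE 0.078, adjusted p = 2.16e-10) and 1.88-fold lower than normal cells (-0.91, SE 0.082, adjusted p = 4.64e-09). The rise in mECC over normal cells was 1.18-fold (log2 fold change 0.24, SE 0.074, adjusted p = 0.00568).

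Cxcl15 (ENSMUSG00000029375, chromosome 5, 90794534 to 90803067), a mouse neutrophil chemokine best known from lung epithelium and also called lungkine, was highest by far in mECC. It had 1.62, 1.64, 1.10 and 1.25 CPM in HPmECC (139 counts in all), 144, 153, 135 and 162 CPM in mECC (15136 counts), and no count in any normal library. The groups lay far apart, with every HPmECC library above every normal one. HPmECC was 104-fold lower than mECC (log2 fold change -6.70, SE 0.091, adjusted p = 9.22e-18). Against a floor of 3 counts over the 4 normal libraries, mECC was at least 3658-fold higher (adjusted p = 6.8e-19) and HPmECC at least 35.1-fold higher (adjusted p = 5.83e-08). Its promoter window (RefSeq, GRCm38.p6, chr5:90794284-90794533, plus strand) is given for contrast with the 3 above, with the single match found, TATAAA at 27 bases before the start, in capitals. The kB consensus was not among its letters. It was also absent from the windows of Cxcl12, higher in both lines than in normal cells, and Cxcl14, lower in both. The window of Cxcl10, higher in both lines, held it. A link between this motif and the levels was not tested.
Cxcl15: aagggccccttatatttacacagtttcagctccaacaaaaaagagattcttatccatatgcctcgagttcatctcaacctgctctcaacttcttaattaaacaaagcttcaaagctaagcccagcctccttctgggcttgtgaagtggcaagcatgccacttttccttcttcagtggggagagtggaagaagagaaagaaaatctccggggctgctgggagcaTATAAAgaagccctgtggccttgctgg

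**Figure D4:**
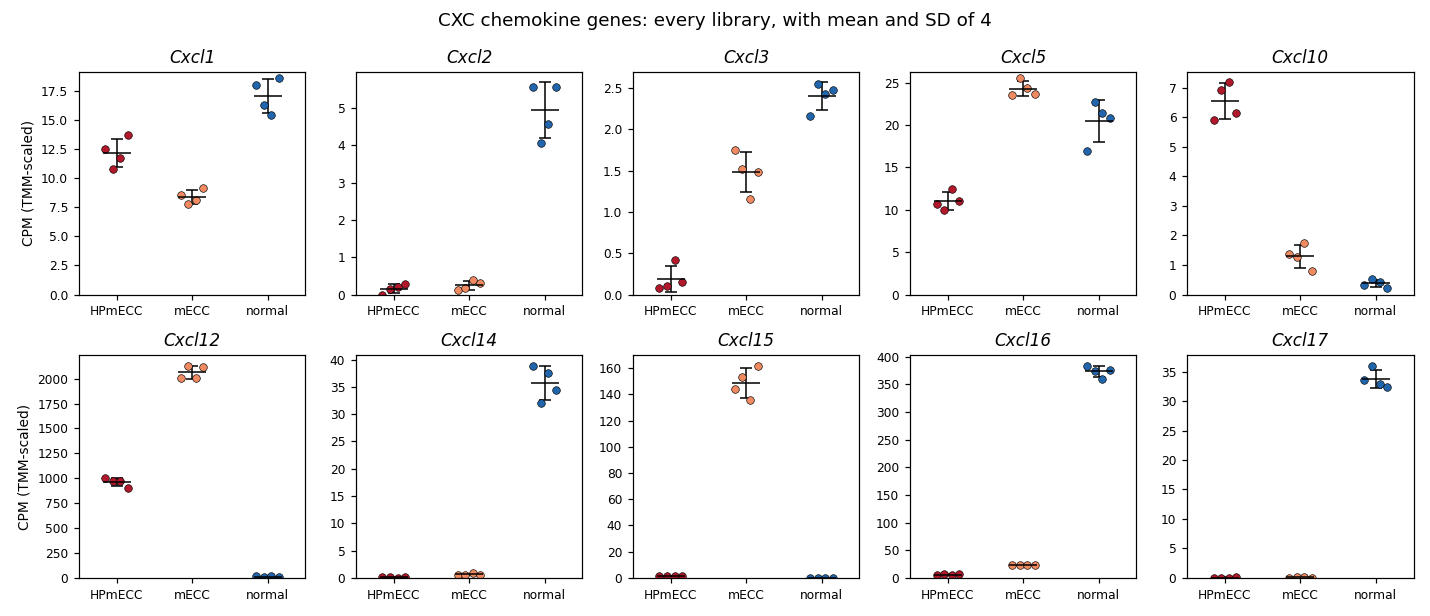
TMM-scaled CPM (y axes, each panel with its own scale from 0) of the 10 CXC chemokines in HPmECC, mECC and normal cells (x axis), with each library as a point and the mean and SD of 4 as lines. Cxcl10 is highest in HPmECC, Cxcl12 and Cxcl15 are highest in mECC, and Cxcl14, Cxcl16 and Cxcl17 are highest in normal cells.

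Cxcl5, Cxcl3, Cxcl15, Cxcl1 and Cxcl2 lie in this order on the plus strand of chromosome 5, together with Ppbp and Pf4, within 146.6 kb. Neighbours in this cluster differed in which culture held the most. Between Cxcl5 and Cxcl3, Ppbp, the precursor of a platelet-derived neutrophil chemokine, had 0.298, 0.286, 0.157 and 0.332 CPM in HPmECC and 2.52, 2.40, 2.32 and 1.79 CPM in mECC, against 253, 280, 258 and 273 CPM in normal cells. Normal libraries stood far above every library of the lines, and mECC above HPmECC. Ppbp was 943-fold lower in HPmECC (adjusted p = 2.51e-24) and 117-fold lower in mECC (adjusted p = 9.17e-24) than in normal cells, whereas Cxcl15, further along the cluster, had counts in both lines and none in normal cells. The summed TPM of the 7 genes was 41.2 ± 3.27 in HPmECC, 187 ± 10.9 in mECC and 494.8 ± 23.2 in normal cells (SD, n = 4 each). Of that sum, Cxcl1 held 62% in HPmECC, Cxcl15 held 69.9% in mECC and Ppbp held 86.6% in normal cells.

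**Figure D5:**
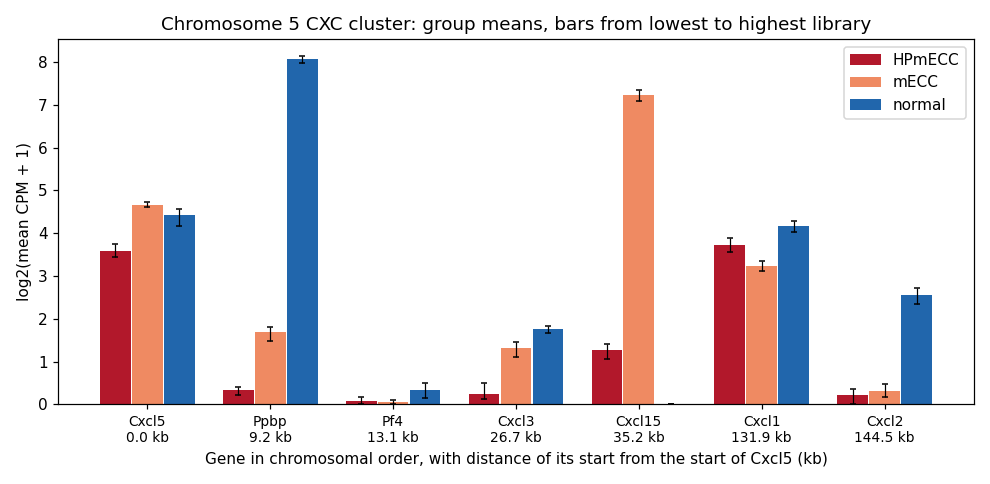
Mean level on a log2(CPM + 1) scale (y axis) of the 7 CXC genes of the chromosome 5 cluster in chromosomal order, with the distance of each start from that of Cxcl5 in kb (x axis), in HPmECC, mECC and normal cells. Bars are means of 4 libraries and whiskers run from the lowest to the highest library. Ppbp stands out in normal cells at 266 CPM and Cxcl15 in mECC at 149 CPM.

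The other CXC ligand genes were at or near the limit of detection and were not tested, so 1 of these 5, Ppbp, was tested. Pf4, a platelet chemokine, had 5 counts over HPmECC, 4 over mECC and 20 over normal cells. Cxcl13, which attracts B cells, had 11 counts over HPmECC, 47 over mECC and 0 over normal cells. Cxcl9, which shares Cxcr3 with Cxcl10, and Cxcl11, annotated as a polymorphic pseudogene, had at most 2 counts in any library.

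Cxcl10 (ENSMUSG00000034855, chromosome 5, 92346638 to 92348889, minus strand) was higher in HPmECC than in mECC or normal cells. It had 5.93, 6.93, 7.19 and 6.15 CPM in HPmECC and 1.37, 1.27, 1.74 and 0.809 CPM in mECC, against 0.339, 0.52, 0.441 and 0.23 CPM in normal cells. The groups did not overlap. HPmECC was 4.98-fold higher than mECC (log2 fold change 2.32, SE 0.17, adjusted p = 9.19e-10) and 17.0-fold higher than normal cells (4.09, SE 0.23, adjusted p = 4.25e-12). mECC was 3.42-fold higher than normal cells (log2 fold change 1.77, SE 0.29, adjusted p = 1.64e-05), whose value rests on 28 counts. Art3, which spans the gene on the opposite strand, had 6 counts over HPmECC, 4 over mECC and 3 over normal cells. The promoter window (RefSeq, GRCm38.p6, chr5:92348890-92349139, minus strand) is shown because it holds interferon and NF-kB motifs together. Capitals mark, in order, GAAANNGAAA, the core of the interferon-stimulated response element, at 213 bases before the start, and kB consensus matches at 159 and 103 bases.
Cxcl10: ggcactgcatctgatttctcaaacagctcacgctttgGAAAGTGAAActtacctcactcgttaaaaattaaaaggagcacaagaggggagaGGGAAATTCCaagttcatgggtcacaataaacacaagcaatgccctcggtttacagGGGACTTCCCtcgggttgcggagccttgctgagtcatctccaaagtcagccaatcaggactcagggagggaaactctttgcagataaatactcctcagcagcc
GAAANNGAAA was found in 3.44% of all windows, among the 7 at hand here also in that of Cxcl14 (172 bases before the start). Cxcr3, the receptor of Cxcl10, had at most 3 counts in any library and was not tested.

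Like Cxcl1, Cxcl2 and Cxcl3, the chemokines Cxcl16, Cxcl14 and Cxcl17 were lower in both lines than in normal cells. Cxcl16 (ENSMUSG00000018920, chromosome 11, 70453983 to 70459984, minus strand), a membrane-bound chemokine that also takes up oxidised lipoprotein, had 5.93, 6.01, 4.41 and 6.85 CPM in HPmECC and 23.4, 23.0, 23.6 and 23.0 CPM in mECC, against 384, 375, 359 and 376 CPM in normal cells. The 3 groups stood in steps without overlap. HPmECC was 3.94-fold lower than mECC (log2 fold change -1.98, SE 0.071, adjusted p = 2.47e-14) and 63.3-fold lower than normal cells (-5.98, SE 0.058, adjusted p = 1.02e-23), and mECC was 16.1-fold lower than normal cells (adjusted p = 2.4e-22). The implied transcript length was 14.6% shorter in HPmECC than in mECC and 21.3% shorter than in normal cells. Zmynd15 overlaps Cxcl16 by 552 bases on the opposite strand, and with 37 counts over HPmECC, 65 over mECC and 376 over normal cells it was far below Cxcl16, though reads in the overlap cannot be assigned with certainty without a stated strand setting.

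Cxcl14 (ENSMUSG00000021508, chromosome 13, 56288643 to 56296551, minus strand), a chemokine of epithelia, had 0.128, 0.143, 0 and 0.0737 CPM in HPmECC (9 counts in all), 0.599, 0.581, 0.797 and 0.511 CPM in mECC (64 counts) and 38.9, 32.0, 37.6 and 34.3 CPM in normal cells. It followed the same steps as Cxcl16, again without overlap. The line HPmECC was 6.48-fold lower than mECC (log2 fold change -2.70, SE 0.41, adjusted p = 1.1e-05) and 365-fold lower than normal cells (-8.51, SE 0.18, adjusted p = 7.12e-19). In mECC it was 56.3-fold lower than in normal cells (-5.82, SE 0.13, adjusted p = 2e-18).

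Cxcl17 (ENSMUSG00000060188, chromosome 7, 25400053 to 25412886, minus strand), a chemokine of mucosal surfaces, had 5 counts over the 4 HPmECC libraries and 8 over the 4 mECC libraries, against 33.7, 36.0, 32.8 and 32.5 CPM (2493 counts) in normal cells. The lines overlapped, with a library at 0 in each, and were not told apart by the test (log2 fold change -0.57, SE 0.74, adjusted p = 0.517). That value was -1.30 without HPmECC replicate 4 and -0.06 without mECC replicate 3, still with no call. Against normal cells HPmECC was 595-fold lower (log2 fold change -9.22, SE 0.20, adjusted p = 9.64e-19), or -9.95 on the log2 scale without HPmECC replicate 4, and mECC was 402-fold lower (-8.65, SE 0.18, adjusted p = 9.23e-19). Cxcl17 lies within the antisense gene 4732471J01Rik, which had 44 counts over HPmECC, 39 over mECC and 37 over normal cells.

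Levels of cell type markers differed between the groups as well. The 10 epithelial markers, Epcam and Cdh1 among them, summed to 354 to 372 TPM in HPmECC, 1618 to 1669 TPM in mECC and 7465 to 7826 TPM in normal cells, in the same order as Cxcl16 and Cxcl14, and none of the 10 was at 0 counts in any group. All 10 were called lower in HPmECC than in mECC and than in normal cells. In mECC against normal cells 9 were called lower and 1 was not called, or 9 lower and 1 higher with library totals. Mean TPM of Krt19 was 510.5 in mECC and 423.1 in normal cells. The 10 fibroblast and stromal markers summed to 5342 to 5571 TPM in HPmECC, 4622 to 5037 TPM in mECC and 1075 to 1317 TPM in normal cells, with Thy1 at 0 in mECC. Their members moved both ways, since Vim, Col1a1, Col3a1, Pdgfra and Pdgfrb were higher in both lines than in normal cells and Col1a2, Dcn, Lum, Thy1 and Hand2 lower. Cxcl12 was higher in both lines than in normal cells and lower in HPmECC than in mECC. The sum of these markers was higher in HPmECC than in mECC, but 5 of the 10 were called higher there and 5 lower (median log2 fold change -0.189). Macrophage and monocyte markers summed to 20.6 to 25.5 TPM in HPmECC, 12.1 to 17.0 TPM in mECC and 258 to 278 TPM in normal cells, where none of the 10 was at 0, whereas Ptprc, Adgre1 and Fcgr1 were at 0 in HPmECC. In normal cells the highest of them by mean TPM were Lyz2 (123.5), Cd68 (58.9) and Laptm5 (55.6). The lowest there were Fcgr1 (0.195), Ptprc (0.41) and Adgre1 (1.16). Neutrophil markers stood at no more than 0.24 TPM in either line and at 4.18 to 6.38 TPM in normal cells. Ly6g, S100a9, Csf3r and Retnlg of the 6 were at 0 in HPmECC, these and Mpo in mECC, and Retnlg in normal cells. Lymphocyte markers stood at no more than 0.42 TPM in any library. Smooth muscle markers summed to 271 to 346 TPM in HPmECC, 119 to 122 TPM in mECC and 2528 to 3030 TPM in normal cells. Mesothelial markers summed to 23.5 to 27.0 TPM in HPmECC (Upk3b, Upk1b and Lrrn4 at 0), 42.9 to 51.2 TPM in mECC (Upk1b and Wt1 at 0) and 370 to 401 TPM in normal cells. Endothelial markers summed to 28.6 to 30.5 TPM in HPmECC, with Cdh5, Tie1 and Tek at 0, to 8.98 to 11.1 TPM in mECC and to 50.8 to 55.5 TPM in normal cells. In HPmECC against normal cells both lists moved both ways, with 2 endothelial markers called higher and 4 lower, and 1 mesothelial marker higher and 5 lower. Mean TPM of Egfl7 was 23.95 in HPmECC and 9.13 in normal cells, and that of Bnc1 14.9 and 11.8. With median-of-ratios factors the mesothelial split became 0 and 5. The part of these cell types in the levels of Cxcl12, Cxcl14, Cxcl16, Cxcl17, Ppbp and Cxcr4 was not tested.

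Cxcr6, the receptor of Cxcl16, was highest in HPmECC. It had 1.19, 1.36, 1.37 and 1.58 CPM in HPmECC and 0.214, 0.109, 0.109 and 0.17 CPM in mECC, against 0, 0, 0.22 and 0.138 CPM in normal cells. All HPmECC libraries lay above all others. Cxcr6 passed the filter on low counts through HPmECC alone, so its higher level there was partly fixed by that filter. HPmECC was 9.05-fold higher than mECC (log2 fold change 3.18, SE 0.38, adjusted p = 5.49e-07) and 13.9-fold higher than normal cells, which held 7 counts (adjusted p = 2.37e-07), while mECC and normal cells overlapped (adjusted p = 0.391). Of the 8 receptor genes, Cxcr4, Cxcr6 and Ackr3 were tested. Cxcr1 had no count in any library and Cxcr2, the receptor of the neutrophil chemokines, at most 1. Cxcr5 had at most 11 counts in a library and Ackr1, a scavenging receptor, at most 3.

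Among the cytokine and receptor genes that feed into the induction of neutrophil chemokines, Il1a set normal cells apart and Il1rn set mECC apart. Of 14 such genes tested (15 listed), 1 was higher and 9 lower in HPmECC than in mECC (median log2 fold change -0.44), 6 higher and 8 lower in mECC against normal cells (-0.29), and 4 higher and 8 lower in HPmECC than in normal cells (-0.60). With library totals in place of TMM the split of mECC against normal cells became 7 and 7, with a median of -0.05. Il1a, which encodes interleukin 1 alpha, had 2, 5, 2 and 0 counts in HPmECC and 2, 4, 5 and 2 counts in mECC, against 925, 962, 885 and 897 CPM in normal cells. It was thus a transcript of normal cells, with log2 fold changes of -13.20 in HPmECC (adjusted p = 2.99e-25, or -13.83 without HPmECC replicate 2) and -12.75 in mECC (adjusted p = 4.96e-25). Il1a passed the filter on low counts through normal cells alone, which partly fixed this direction. Il1rn, the interleukin 1 receptor antagonist, was highest in mECC, as was Cxcl15, with 11.1 ± 0.705 CPM in HPmECC and 133 ± 9.16 CPM in mECC, against 10.9 ± 0.715 CPM in normal cells. HPmECC was 11.98-fold lower than mECC (adjusted p = 2.93e-19), and mECC 12.2-fold higher than normal cells (adjusted p = 2.44e-20). Tnf, which encodes tumour necrosis factor, had 5 counts over HPmECC and 3 over mECC, against 339 over normal cells. Its receptor genes went the other way. Against normal cells Tnfrsf1a was 1.365-fold higher in HPmECC and 1.85-fold in mECC, and Tnfrsf1b 2.74-fold and 3.71-fold. Tlr2, a sensor of bacterial lipoproteins, was 4.53-fold lower in HPmECC and 4.32-fold lower in mECC than in normal cells (adjusted p = 2.24e-15 and 2.91e-15), and Tlr4, the endotoxin sensor, 3.44-fold lower in HPmECC (adjusted p = 2.42e-16). Between the lines Il17rc and Osmr, which encode receptor chains for interleukin 17 and oncostatin M, were 1.62-fold and 1.54-fold lower in HPmECC (adjusted p = 1.42e-10 and 4.87e-11).

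Among 19 NF-kB pathway genes, all tested, 6 were higher and 8 lower in HPmECC than in mECC (median log2 fold change -0.06), and 6 higher and 13 lower in HPmECC than in normal cells (-0.28). In mECC against normal cells 4 were higher and 12 lower (-0.34). With library totals in place of TMM these splits against normal cells became 7 and 9 in HPmECC (-0.087) and 8 and 8 in mECC (-0.097). Tnfaip3, which encodes the inhibitor A20, had 12.2 ± 1.499 CPM in HPmECC and 15.2 ± 0.838 CPM in mECC, against 93.9 ± 3.95 CPM in normal cells, and was 7.70-fold lower in HPmECC (adjusted p = 9.22e-19) and 6.17-fold lower in mECC (adjusted p = 3.05e-18) than in normal cells. Nfkbiz, a nuclear cofactor of NF-kB, had 15.9 ± 1.24 CPM in HPmECC and 26.2 ± 0.915 CPM in mECC, against 129 ± 3.89 CPM in normal cells, and was lower in HPmECC than in mECC (1.65-fold, adjusted p = 6.56e-10) and than in normal cells (8.15-fold, adjusted p = 8.97e-21). mECC was 4.94-fold lower than normal cells in Nfkbiz (adjusted p = 1.77e-19). Nfkbia, which holds NF-kB in the cytoplasm, was 2.16-fold lower in HPmECC (adjusted p = 4.2e-12) and 3.19-fold lower in mECC (adjusted p = 1.12e-14) than in normal cells. Tnip1, a partner of A20, was 2.08-fold lower in HPmECC than in mECC (adjusted p = 5.2e-15), and Ikbkg, a kinase subunit that activates NF-kB, 1.83-fold lower (adjusted p = 6.58e-14).

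Of 15 interferon axis genes tested (17 listed), 5 were higher and 6 lower in HPmECC than in mECC (median log2 fold change 0.011, which became -0.034 with library totals and -0.003 with median-of-ratios factors). Against normal cells 5 were higher and 8 lower in mECC (-0.51), and 3 higher and 11 lower in HPmECC (-0.47), which with library totals became 7 and 8 in mECC (-0.27) and 5 and 9 in HPmECC (-0.27). Irf1, a transcription factor that activates Cxcl10, had 67.9 ± 3.87 CPM in HPmECC and 84.1 ± 3.67 CPM in mECC, against 22.4 ± 2.98 CPM in normal cells. It was above normal cells in both lines, 3.05-fold in HPmECC (adjusted p = 3.02e-14) and 3.77-fold in mECC (adjusted p = 1.54e-15). Socs3, a feedback inhibitor of cytokine receptors, was 4.74-fold higher in HPmECC (adjusted p = 1.08e-18) and 3.96-fold higher in mECC (adjusted p = 9.1e-18) than in normal cells. Jak2, a kinase of the interferon gamma receptor, was 3.56-fold lower in HPmECC than in normal cells (adjusted p = 1.77e-16) and 1.38-fold lower than in mECC (adjusted p = 6.69e-07). Ifngr1, a chain of that receptor, was 1.90-fold lower in HPmECC than in mECC (adjusted p = 2.26e-12) and Irf9, the DNA-binding subunit of the complex that interferons activate, 1.42-fold lower (adjusted p = 3.11e-05), while Irf7, a regulator of interferon genes, was 2.73-fold lower in mECC than in normal cells (adjusted p = 7.81e-09).

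Proteins that control the decay of chemokine mRNA form a short list of 7 genes, all tested. Most of them destabilise such mRNAs, whereas Elavl1 is known for stabilising them. In HPmECC against mECC 4 were higher and 1 lower (median log2 fold change 0.08), and in both lines against normal cells 4 were higher and 3 lower (0.54 in HPmECC and 0.32 in mECC), or 4 and 2 with library totals. Elavl1 was among the 3 lower, averaging 93.2 ± 4.26 CPM (HPmECC) and 94.4 ± 4.36 CPM (mECC), against 110.5 ± 1.72 CPM in normal cells, although its mean TPM was higher in both lines (70.9 in HPmECC and 77.2 in mECC, against 67.3 in normal cells). Zc3h12a, an endoribonuclease that cleaves inflammatory mRNAs, had 17.96 ± 1.29 CPM in HPmECC and 11.5 ± 0.574 CPM in mECC, against 36.7 ± 2.87 CPM in normal cells. HPmECC was 1.57-fold above mECC (adjusted p = 1.45e-07) and both lines lay below normal cells (2.03-fold in HPmECC, adjusted p = 1.53e-11, and 3.18-fold in mECC, adjusted p = 1.59e-14). Zfp36, which binds AU-rich elements, was also lower, 2.38-fold in HPmECC and 2.30-fold in mECC (adjusted p = 9.54e-13 and 1.5e-12), whereas its relative Zfp36l2 was higher, 2.27-fold in HPmECC and 1.93-fold in mECC (adjusted p = 4.82e-17 and 1.43e-15). Between the lines, Zfp36l1 and Zfp36l2 were 1.24-fold and 1.18-fold higher in HPmECC (adjusted p = 1.23e-08 and 2.43e-06).

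Of 8 tested genes of proteases that trim or release chemokines (10 listed), 2 were higher and 4 lower in HPmECC than in mECC (median log2 fold change 0.004, which became -0.041 with library totals and -0.011 with median-of-ratios factors), and 2 were higher and 5 lower in either line than in normal cells (-1.41 in HPmECC and -1.18 in mECC). Mmp2, a gelatinase that cleaves Cxcl12, had 260 ± 6.31 CPM in HPmECC and 34.6 ± 1.33 CPM in mECC, with normal cells between them at 111 ± 9.8 CPM. The difference between the lines was 7.54-fold (adjusted p = 8.34e-19). Mmp9, the other gelatinase, had 5.18 ± 0.391 CPM in HPmECC and 0.328 ± 0.0981 CPM in mECC, against 114 ± 7.84 CPM in normal cells. HPmECC was 15.7-fold above mECC (adjusted p = 9.5e-13), while Mmp9 was 22.1-fold lower in HPmECC (adjusted p = 4.51e-21) and 348-fold lower in mECC (adjusted p = 3.39e-22) than in normal cells. Dpp4, a peptidase that clips Cxcl10 and Cxcl12, was 16.1-fold lower in HPmECC and 17.8-fold lower in mECC than in normal cells (adjusted p = 1.45e-12 and 9.31e-13), as was Mmp12, the macrophage elastase, at 15.9-fold and 23.2-fold (adjusted p = 6.8e-12 and 2.29e-12). Adam10, which sheds Cxcl16 from the cell surface, was 1.28-fold lower in HPmECC than in mECC (adjusted p = 2.79e-09).

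Heparan sulfate proteoglycans, which hold secreted chemokines at the cell surface, moved both ways. Of 15 genes of their cores and synthesis, all tested, 4 were higher and 8 lower in HPmECC than in mECC (median log2 fold change -0.17), 8 higher and 6 lower in mECC against normal cells (0.42), and 7 higher and 7 lower in HPmECC than in normal cells (0.025, or -0.013 with median-of-ratios factors). With library totals the splits against normal cells became 9 and 5 in mECC (0.658) and 8 and 6 in HPmECC (0.22). The syndecan gene Sdc3 had 509 ± 14.0 CPM in HPmECC, against 136 ± 4.20 CPM in mECC, a 3.74-fold difference (adjusted p = 4.26e-19). Sdc2 was 7.20-fold higher in HPmECC and 5.34-fold higher in mECC than in normal cells (adjusted p = 3.55e-23 and 5.34e-22), and the glypican gene Gpc6 11.7-fold higher in each (adjusted p = 4.11e-17 and 4.04e-17). Gpc3, another glypican gene, had 3 counts over HPmECC and 3 over mECC, against 20.9 ± 1.92 CPM in normal cells. It passed the filter on low counts through normal cells alone, which partly fixed its lower levels in the lines. The ratio of normal cells to the line was 684 for HPmECC (exact 95% counting interval 233 to 3318) and 714 for mECC (244 to 3466), and the fitted log2 fold change of mECC, -9.23, became -10.16 without mECC replicate 4. Between the lines Gpc4 was 2.25-fold lower and Gpc1 1.47-fold higher in HPmECC (adjusted p = 3.33e-12 and 1.97e-12).

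The genes whose levels ran most like each chemokine over the 12 libraries were found among 11436 candidates by the Pearson correlation of log2(CPM + 1), a description that is set mainly by the 3 group levels since the libraries of a group lie close together. For Cxcl12 these were Timp2 and Plxnd1 (r = 0.9995 each), for Cxcl14 Wnk2 and Slc44a4 (0.9992 each), for Cxcl16 Unc13b (0.9994) and Elf3 (0.9993), and for Cxcl17 Slc6a14 (0.9998) and Cd55 (0.9997). Cxcl15 was closest to Itih2 (0.998) and Brinp3 (0.9979), which had 39.3 and 25.6 CPM in mECC. Cxcl10 was closest to Ncaph2 (0.9928) and Pfas (0.9926), and Cxcl2 to Adam12 (0.9955) and Ehd1 (0.9953). Weaker matches were found for Cxcl3, with Pfn2 (0.989) and Fam102a (0.9873), Cxcl5, with Usp47 (0.9879) and Mia3 (0.9821), and Cxcl1, with Rnf126 (0.9824) and Rfx7 (0.9812). A pattern such as that of Cxcl17 was common, with 2355 genes at r over 0.95, and that of Cxcl5 was rare, with 81.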

How the data were processed

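Per the labels' protocols, RNeasy kits yielded the RNA and a TruSeq mRNA kit the libraries. Trim Galore (version not given in the sources used here), STAR 2.6.1a, RSEM 1.3.1 and build GRCm38 are named in the submitters' processing notes. Neither the annotation release nor the strand setting is stated there. The authors deposited RSEM expected counts per gene, which are whole numbers in the table, so no rounding was needed, and TPM, which the authors made by dividing by transcript length and fixing the sum of each library. The FPKM table was left out, because TPM holds the same scaling. Reads that match several transcripts are shared out by RSEM.

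The 10 members, the pathway and marker lists and the rule for named genes were chosen with earlier results of these data known. By that rule all 10 chemokines were named, with up to 3 called genes of each pathway list per comparison (largest change, 5 CPM or more in the higher group), all genes of the lists of other CXC ligands and CXC receptors whatever their level, and the 2 genes closest to each chemokine by correlation. Elavl1, Tnf, Tnfrsf1a, Tnfrsf1b and the single cell type markers were named after their values were seen.

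Tests on the deposited counts used edgeR 4.0.16 with R 4.3.3 (quasi-likelihood test over all 12 libraries, TMM, filterByExpr with its minimum of 10 counts, Benjamini-Hochberg adjustment over 15283 genes, threshold 0.05). SEs come from the F statistic, and errors after ± are SD over 4 libraries. The biological coefficient of variation was 4.27%. On counts simulated for HPmECC against mECC with 14973 genes, 99% of changes of log2 size 1 and 100% of size 2 were recovered (100 genes each). All genes were given the same spread, and the unchanged ones the same mean in every group. In the data 68.3% of genes were called between the lines, so these rates may not carry over. A group with no count was set to 3 counts over its 4 libraries, and 1 to 3 counts got an exact 95% interval, which covers counting error only. Of 55385 identifiers 55144 matched a symbol. Coordinates are those of GENCODE M21 on GRCm38. Figures were drawn with Python 3.11.15 and matplotlib 3.10.9. The alternatives are median-of-ratios factors, library totals, no filter, a minimum of 10 CPM, DESeq2 1.42.0, limma 3.58.1 on log2 TPM, only the groups compared, a replicate block, glmTreat with a least log2 change of 1, and omission of each library.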

Additional observations from a re-analysis of the deposited data

Results flagged for a closer look

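Cxcl5 moved in opposite directions relative to normal cells, below them in all 4 HPmECC libraries and above them in all 4 mECC libraries. It had 11.04 ± 1.04 CPM in HPmECC and 24.3 ± 0.889 CPM in mECC, against 20.5 ± 2.45 CPM in normal cells (SD, n = 4). The difference itself was tested as HPmECC against mECC, with a log2 fold change of -1.15 (edgeR adjusted p = 2.16e-10). In the 29 combinations of a chemokine and a group that could be tested for an outlying library, none was found.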

How the results depend on the processing

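Of 649 chemokine fold changes under the alternatives, 640 kept their direction and their side of the threshold, 9 kept the direction and lost the call, and none reversed; for named pathway genes these numbers were 1300, 15 and none of 1315. Requiring a minimum log2 fold change of 1 left 1645 genes called in HPmECC against mECC, 5515 in mECC against normal cells and 5559 in HPmECC against normal cells, against 10440, 13184 and 13200, by its construction. Cxcl1 and Cxcl5 lost their calls under it in all 3 comparisons, and Cxcl3 in mECC against normal cells, where it also lost its call with library totals and on log2(TPM + 0.1); the cause was not tested. With a minimum of 10 CPM in 4 libraries 6, 7 and 7 chemokines were called, since fewer were tested. Leaving out each library gave 10128 to 10561, 13047 to 13389 and 13076 to 13361 genes, with 8, 10 and 10 chemokines called each time. In mECC against normal cells 48.8% of calls were higher, against 59.1% with library totals and 58.9% on log2(TPM + 1). With library totals the median of all genes moved to 0.221 in mECC and 0.197 in HPmECC against normal cells, against -0.018 and 0.001. Libraries that share a number in their titles deviated about as little together (r -0.051 to 0.08 over 12 pairs) as others (-0.073 to 0.076 over 36 pairs). Such values cannot show whether libraries of a number were grown or prepared together. With the number as a replicate block 10321, 13123 and 13146 genes and 8, 10 and 10 chemokines were called. Depth limits Cxcl2, Cxcl3, Cxcl14 and Cxcl17 in the lines, Cxcl10 in normal cells and Cxcr4, where few counts set the value.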
